A study of Mus musculus with 12 samples.

Results

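Il6, 6 chemokine genes (Cxcl1, Cxcl5, Cxcl12, Ccl2, Ccl7 and Ccl20) and Ptgs2, the gene of cyclooxygenase 2, are described here in 3T3-L1 adipocytes, fat cells made in culture from a mouse fibroblast line. The members are the 13 probe sets, of 45037 that were no controls, whose single gene symbol was one of these 8 names, which makes 8 of 18193 genes on the array. They were chosen by their signals with berberine and with DMSO on these same arrays, so every comparison of a member with DMSO is a description and no test. Expression was read on 12 single-colour Affymetrix 3' arrays, 3 for each of 4 groups, as a log2 signal, on which a step of 1 is a doubling. The fat cells had been induced with insulin (5 µg/ml), the glucocorticoid dexamethasone (1 µM) and the phosphodiesterase inhibitor IBMX (0.5 mM) over 48 h, were used on days 8 to 10, and spent 12 h without serum in medium with 0.2% albumin. They then received the plant alkaloid berberine at 5 µM for 3, 6 or 12 h, or the solvent DMSO, with no genetic change named for any group. The labels do not give the duration of the DMSO incubation, so an effect of berberine and one of time in culture cannot be told apart in the contrasts with DMSO, which all share the same 3 DMSO arrays. The labels also do not say that replicates came from separate cultures, so each p-value covers the spread among these arrays alone, a spread that may be technical, and their number limits the precision.

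Interleukin 6 is a secreted cytokine that signals through the receptor chain gp130 to JAK kinases and STAT3. Chemokines are small secreted proteins that draw leukocytes: those of the CXC class that bind CXCR2, such as the products of Cxcl1 and Cxcl5, draw mainly neutrophils, and those of the CC class such as the products of Ccl2 and Ccl7 draw mainly monocytes. Cyclooxygenase 2 is the inducible enzyme that turns arachidonic acid, released from membranes by phospholipase A2, into the precursor of prostaglandins. Fat cells make several of these factors themselves, and the transcription factors NF-kB and C/EBP beta are textbook regulators of many of them.

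Promoter sequences are shown because the 8 members had a higher mean at 6 h of berberine than with DMSO, while the promoters found hold different motifs. The course over time was not shared by all, and Ptgs2 had a lower mean than DMSO at 3 h. RefSeq's promoter table (build GRCm38.p6) matched 5 of the 8 members, and the other 3 are Cxcl5, Ccl2 and Ccl7. Each sequence is the 250 bases before the annotated start, on the plus strand, and capitals mark the motif matches given after the sequences. They lie at chr5:30012864-30013113 (Il6), chr5:90890995-90891244 (Cxcl1), chr6:117168285-117168534 (Cxcl12), chr1:83116516-83116765 (Ccl20) and chr1:150099781-150100030 (Ptgs2).
Il6: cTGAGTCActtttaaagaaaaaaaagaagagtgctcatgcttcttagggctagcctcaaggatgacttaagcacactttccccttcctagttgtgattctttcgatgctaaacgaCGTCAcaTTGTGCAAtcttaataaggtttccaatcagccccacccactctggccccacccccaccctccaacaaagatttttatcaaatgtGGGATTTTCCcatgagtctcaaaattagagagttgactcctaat
Cxcl1: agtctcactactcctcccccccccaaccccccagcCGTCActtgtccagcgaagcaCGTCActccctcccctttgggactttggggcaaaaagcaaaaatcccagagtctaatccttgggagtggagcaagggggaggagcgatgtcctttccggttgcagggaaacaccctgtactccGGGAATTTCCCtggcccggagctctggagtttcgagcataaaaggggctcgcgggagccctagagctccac
Cxcl12: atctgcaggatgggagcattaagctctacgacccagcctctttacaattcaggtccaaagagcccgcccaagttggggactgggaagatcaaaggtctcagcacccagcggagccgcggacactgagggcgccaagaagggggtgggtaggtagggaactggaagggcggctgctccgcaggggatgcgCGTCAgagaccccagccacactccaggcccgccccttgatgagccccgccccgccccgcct
Ccl20: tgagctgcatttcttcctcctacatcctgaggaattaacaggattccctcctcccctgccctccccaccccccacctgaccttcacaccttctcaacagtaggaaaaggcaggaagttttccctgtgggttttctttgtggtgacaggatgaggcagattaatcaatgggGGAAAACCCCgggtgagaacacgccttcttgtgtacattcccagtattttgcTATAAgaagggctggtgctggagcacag
Ptgs2: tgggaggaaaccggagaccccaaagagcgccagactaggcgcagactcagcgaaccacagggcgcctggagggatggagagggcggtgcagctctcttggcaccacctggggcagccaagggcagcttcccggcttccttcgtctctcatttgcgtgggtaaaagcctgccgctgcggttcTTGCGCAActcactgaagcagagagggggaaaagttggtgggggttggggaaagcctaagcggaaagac
Both strands were searched for 5 motifs, with positions counted backwards from -1, the base before the start. The kappaB consensus of NF-kB was present in 3 of the 5 promoters, in Il6 (-44 to -35), in Cxcl1 (2 matches that overlap on opposite strands between -71 and -61) and in Ccl20 (-80 to -71), and in 7.25% of the 32851 promoters in the table. The C/EBP motif TTGCNNAA was present in 2, in Il6 (-128 to -121) and in Ptgs2 (-69 to -62), and in 9.56% of all promoters. The AP-1 motif TGANTCA was present in Il6 alone among the 5 (-249 to -243), and in 6.75% of all promoters. The CRE core TGACG was present once in Il6 and in Cxcl12 and at 2 places in Cxcl1, and in 17.8% of all promoters. TATAA was present in Ccl20 (-28 to -24), and in 22.8% of all promoters. A match describes these letters only and names no bound factor.

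Array quality was read from control probe sets and cell identity from marker genes. Between 47.9% and 51.6% of probe sets per array reached the detection threshold, a log2 signal of 5.77, which is the median of all values. RNA integrity was read from the Gapdh control probe sets, whose 3' end differed from the 5' end by -0.16 to 0.03 (log2), and from the actin ones, where that difference was 1.51 to 1.72. The spike control creX was brighter at 6 h (15.14 to 15.40) than with DMSO (14.78 to 15.11). All 13 mature adipocyte markers on the array were at or above the threshold on every DMSO array. Of 15 macrophage and leukocyte markers, Ptprc, Itgam, Cd163, Aif1, Mrc1, Tyrobp and Cd3e were under the threshold on all 12 arrays. Cd14 (8.94 to 9.60) and Csf1r (6.99 to 7.63) were above it on all 12, Lyz2 and Mpeg1 on 11 and Cd68 on 10.

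**Figure D1:**
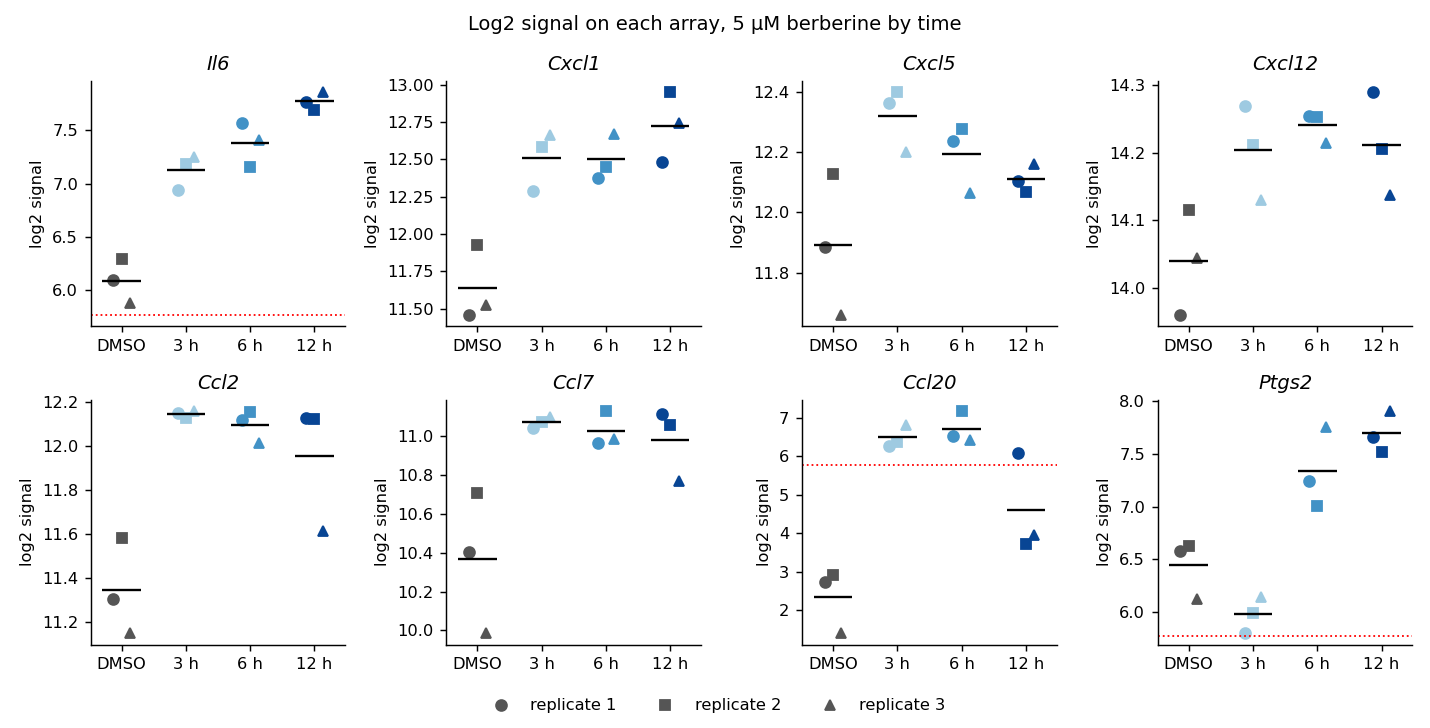
Log2 signal (vertical axis, a scale of its own in each panel) of the 8 members on each of the 12 arrays, by group (horizontal axis). Symbols are replicates, bars are group means and the dotted red line is the detection threshold of 5.77. Il6 with DMSO (5.88 to 6.29) lies just above that line and Ccl20 with DMSO (1.40 to 2.91) under it.

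Il6 was higher with berberine at every time, and highest at 12 h. Its log2 signals were 6.10, 6.29 and 5.88 with DMSO, 6.95, 7.18 and 7.25 at 3 h, 7.57, 7.16 and 7.41 at 6 h, and 7.77, 7.69 and 7.86 at 12 h of berberine. All 9 berberine arrays lay above all 3 DMSO arrays, and the DMSO arrays lay close to the threshold, so the folds start from a dim signal. Il6 was 2.05-fold higher at 3 h (log2 change 1.03 ± 0.21 SE), 2.44-fold at 6 h (1.29 ± 0.21) and 3.21-fold at 12 h (1.68 ± 0.21) than with DMSO. The 3 arrays at 12 h also lay above all arrays at 3 h and 6 h. The berberine arrays also entered the choice of members, so the p-values between berberine times are values of the fit and no independent support. The difference between 12 h and 3 h was 1.57-fold (log2 change 0.65 ± 0.21 SE, adjusted p = 0.0396 by limma over 12136 genes). This call ended whichever of the 6 arrays of these groups was left out (adjusted p = 0.0595 without 3 h replicate 3 to 0.138 without 3 h replicate 1). Neither step taken alone passed the test, 6 h against 3 h (0.25 ± 0.21, adjusted p = 0.606) or 12 h against 6 h (0.39 ± 0.21, adjusted p = 0.326).

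Cxcl1, a neutrophil chemokine gene, was higher with berberine from 3 h, with no later step past the test. Its main probe set read 11.46, 11.93 and 11.53 with DMSO, 12.29, 12.58 and 12.66 at 3 h, 12.37, 12.45 and 12.67 at 6 h, and 12.48, 12.95 and 12.75 at 12 h. Every berberine array lay above every DMSO array, while the berberine times overlapped each other in this probe set. The fold over DMSO was 1.83 at 3 h, 1.82 at 6 h and 2.13 at 12 h (log2 changes 0.87, 0.86 and 1.09, each ± 0.13 SE). Both other probe sets of Cxcl1 gave similar sizes, with log2 changes of 0.81, 0.79 and 1.06 for 1419209_at and 0.76, 0.87 and 0.73 for 1441855_x_at. Their late courses differed. In 1419209_at all 12 h arrays lay above all 6 h arrays (0.27, adjusted p = 0.176 by limma) and all 3 h arrays (0.25, adjusted p = 0.125). In 1441855_x_at the change from 6 h to 12 h was -0.13 (adjusted p = 0.519). No difference between berberine times passed the test for Cxcl1 (adjusted p = 0.981 for 6 h against 3 h, 0.362 for 12 h against 6 h and 0.287 for 12 h against 3 h by limma).

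Cxcl5, another neutrophil chemokine gene, was highest at 3 h. It read 11.89, 12.13 and 11.66 with DMSO, 12.37, 12.40 and 12.20 at 3 h, 12.24, 12.28 and 12.07 at 6 h, and 12.10, 12.07 and 12.16 at 12 h. The 3 h arrays lay above all DMSO arrays, and those at 6 and 12 h overlapped the DMSO array of replicate 2. Against DMSO the log2 change was 0.43 ± 0.09 SE at 3 h (1.35-fold), 0.30 ± 0.09 at 6 h and 0.22 ± 0.09 at 12 h. These changes depended on single arrays. At 3 h the change was 0.32 to 0.55 with single arrays left out. Its call at 3 h (adjusted p = 0.0204 by limma) ended without any of several single arrays. The highest adjusted p was 0.113, without 3 h replicate 2. Without DMSO replicate 3 the later changes were 0.19 at 6 h and 0.10 at 12 h. Without DMSO replicate 2 the change at 12 h was 0.34. All 12 h arrays lay under all 3 h arrays, a difference that did not pass the test (log2 change -0.21 ± 0.09, adjusted p = 0.138 by limma), or did in a fit of only the 2 groups compared (adjusted p = 0.0387).

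Cxcl12, the chemokine of CXCR4 that stromal cells make without stimulation, had small changes, and its probe sets differed in course. The brighter probe set, 1448823_at, read 13.96, 14.12 and 14.04 with DMSO, 14.27, 14.21 and 14.13 at 3 h, 14.26, 14.25 and 14.21 at 6 h, and 14.29, 14.21 and 14.14 at 12 h. Its changes against DMSO were 0.16, 0.20 and 0.17 on the log2 scale (each ± 0.06 SE), and after quantile normalization they were 0.09 at 6 h and 0.11 at 12 h. The dimmer probe set, 1417574_at, read 11.57, 11.56 and 11.56 with DMSO, 11.77, 11.89 and 11.75 at 3 h, 11.99, 11.83 and 12.04 at 6 h, and 12.11, 12.06 and 12.07 at 12 h. Its changes against DMSO were 0.24, 0.39 and 0.52 (each ± 0.07 SE). In 1417574_at the 12 h arrays lay above all 3 h arrays, with a log2 change of 0.28 ± 0.07 SE (adjusted p = 0.00811 by limma over 25053 probe sets), while in 1448823_at it was 0.01 ± 0.06 (adjusted p = 0.957 over 12136 genes). The difference between the probe sets was not tested. The remaining probe set, 1439084_at, had 2 of 12 arrays at or above the threshold and was not fitted.

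**Figure D2:**
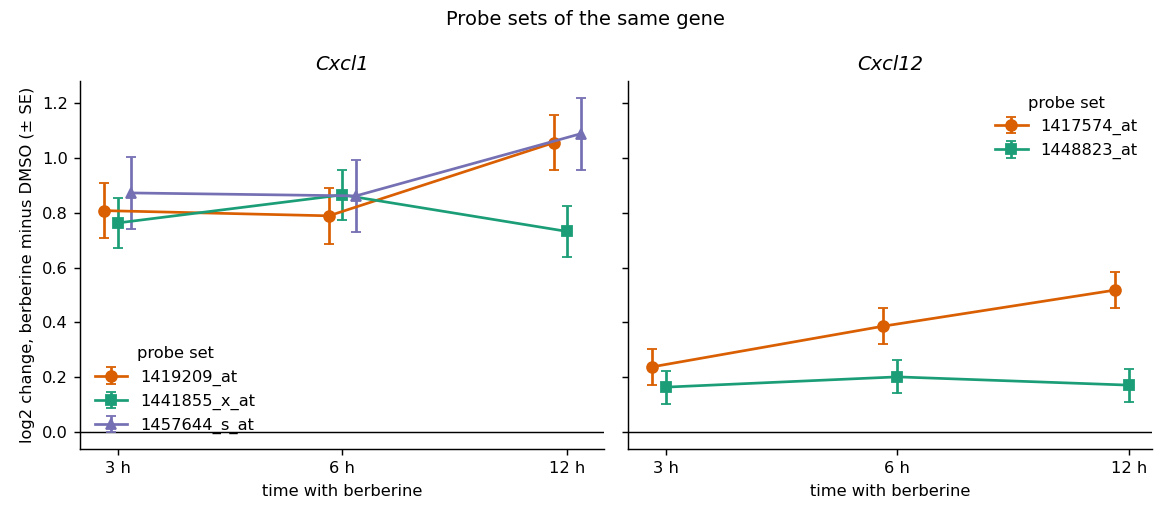
Log2 change against DMSO (vertical axis, ± limma's SE) of each fitted probe set of Cxcl1 and Cxcl12 at 3, 6 and 12 h of berberine (horizontal axis). The 3 probe sets of Cxcl1 lie between 0.73 and 1.09, while those of Cxcl12 part with time, at 0.52 and 0.17 by 12 h.

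Ccl2 and Ccl7, genes of monocyte chemokines that lie next to each other on chromosome 11, had almost the same course. Ccl2 read 11.30, 11.58 and 11.15 with DMSO, 12.15, 12.13 and 12.16 at 3 h, 12.11, 12.15 and 12.01 at 6 h, and 12.12, 12.12 and 11.61 at 12 h. Ccl7 read 10.40, 10.71 and 9.98 with DMSO, 11.04, 11.07 and 11.10 at 3 h, 10.97, 11.13 and 10.98 at 6 h, and 11.11, 11.06 and 10.77 at 12 h. In both genes all berberine arrays lay above all DMSO arrays, and replicate 3 of the 12 h group was the lowest berberine array, just above the highest DMSO array. Ccl2 was 1.74-fold, 1.68-fold and 1.52-fold higher than with DMSO at 3, 6 and 12 h (log2 changes 0.80, 0.75 and 0.61, each ± 0.12 SE). Ccl7 was 1.63-fold, 1.58-fold and 1.53-fold higher (log2 changes 0.71, 0.66 and 0.62, each ± 0.13 SE). The mean of both genes was lower at each later time, and in Ccl2 all 12 h arrays lay under all 3 h arrays. For 12 h against 3 h the log2 change was -0.19 ± 0.12 in Ccl2 (adjusted p = 0.295) and -0.09 ± 0.13 in Ccl7 (adjusted p = 0.709), and without 12 h replicate 3 these differences were -0.02 in Ccl2 and 0.02 in Ccl7. Over the 12 arrays the log2 signals of Ccl2 and Ccl7 had a Pearson r of 0.96, a description that includes the difference from DMSO for which both were chosen.

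Ccl20, whose product binds CCR6, was under the threshold on all 3 DMSO arrays (2.73, 2.91 and 1.40), where values have no order. It read 6.27, 6.37 and 6.82 at 3 h, 6.52, 7.18 and 6.43 at 6 h, and 6.10, 3.72 and 3.96 at 12 h of berberine. It thus passed the filter on dim probe sets only through 7 berberine arrays, all those at 3 and 6 h and 1 at 12 h. When values below the threshold are set to the threshold, Ccl20 was at least 1.64-fold higher at 3 h and at least 1.92-fold higher at 6 h than with DMSO. At 12 h both group means were under the threshold and no fold is given. All 12 h arrays lay under all arrays at 3 and 6 h, at least 1.53-fold lower in the mean than at 3 h and at least 1.78-fold lower than at 6 h. These differences are given as values with no test, because Ccl20 passed the filter only through the arrays where it is high.

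Ptgs2 was the only member with a lower mean than DMSO at 3 h, and its rise came between 3 and 6 h. It read 6.58, 6.63 and 6.12 with DMSO, 5.80, 5.99 and 6.14 at 3 h, 7.24, 7.01 and 7.76 at 6 h, and 7.66, 7.52 and 7.91 at 12 h. The 3 h arrays lay near the lowest DMSO array or under it, close to the threshold, and all arrays at 6 and 12 h lay above all others. Against DMSO the log2 change was -0.46 ± 0.26 SE at 3 h, 0.89 ± 0.26 at 6 h (1.86-fold) and 1.25 ± 0.26 at 12 h (2.39-fold). Between berberine times Ptgs2 rose 2.56-fold at 6 h against 3 h (log2 change 1.36 ± 0.26 SE, adjusted p = 0.011 by limma over 12136 genes). Without 6 h replicate 3, the brightest of that group, this adjusted p was 0.0659. At 12 h Ptgs2 was 3.29-fold higher than at 3 h (1.72 ± 0.26, adjusted p = 0.000145), a call that held with each array left out in turn (adjusted p of 0.0015 or less). The step from 6 h to 12 h did not pass (0.36 ± 0.26, adjusted p = 0.492). A second Ptgs2 probe set, 1417263_at, was under the threshold on all arrays but 1 and was not fitted.

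**Figure D3:**
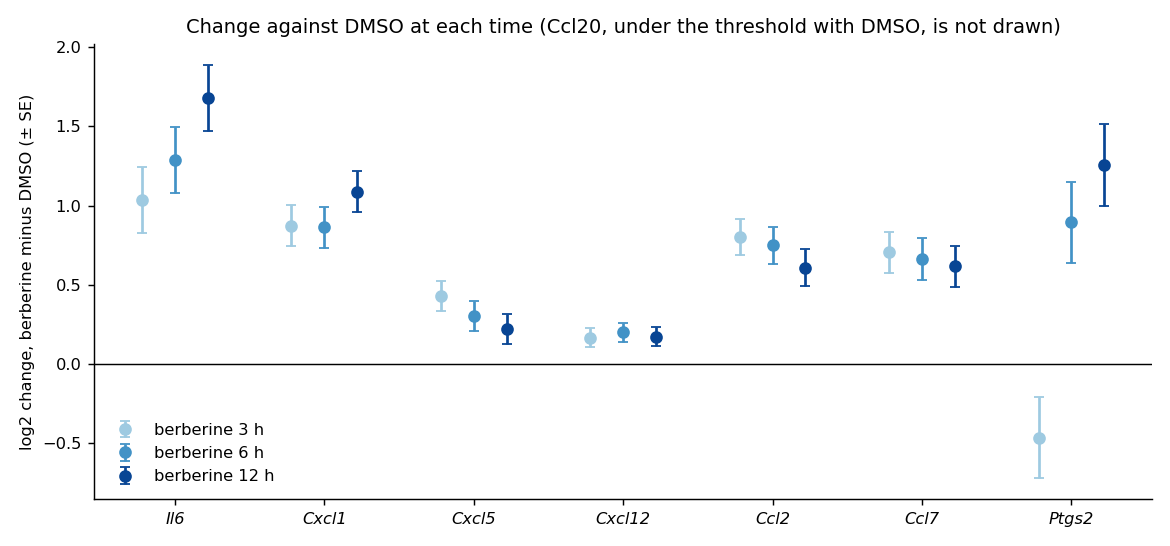
Log2 change against DMSO (vertical axis, ± limma's SE) of 7 members at 3, 6 and 12 h of berberine, drawn as points from pale to dark. Il6 reaches 1.68 at 12 h, Ccl2 and Ccl7 stay between 0.61 and 0.80, and Ptgs2 is at -0.46 at 3 h and 1.25 at 12 h; Ccl20 is left out because it was under the threshold with DMSO.

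As a group, 6 of the 8 members passed the threshold of limma (adjusted p under 0.05) as higher than DMSO at 3 h, where 1.09% of the 12136 genes tested did, and Cxcl12 and Ptgs2 did not. At 6 h it was 8 of 8, where 7.24% of genes were called higher, and at 12 h 7 of 8 without Cxcl5, where 13.7% were. As lower, 0 of 8 were called at any of these times, where 0.816%, 6.98% and 14.6% of genes were at 3, 6 and 12 h. All berberine arrays lay above all DMSO arrays in 7 of 8 members at each time, as in 10.5%, 15.7% and 19.1% of genes. These counts follow from how the members were chosen and nothing is read from them. They ranged from 4 to 6, from 5 to 8 and from 5 to 8 with single arrays left out (5 at 6 h without DMSO replicate 1 or 3). Ccl20 is among them only through the berberine arrays that let it pass the filter. With its dim values raised to the threshold it was not called at 3 h (adjusted p = 0.107) or 12 h (0.763), and that setting gave 5, 8 and 5 of 8 members called at 3, 6 and 12 h. The median log2 change of the 8 was 0.75, 0.81 and 0.85 at 3, 6 and 12 h, or 0.71, 0.81 and 0.61 with Ccl20 raised in that way, beside 0.02, 0.01 and -0.01 for all genes tested.

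Between berberine times Ptgs2 and Il6 were the members called. At 6 h against 3 h 1 of 8 was called higher (Ptgs2), where 1.19% of all genes were, and at 12 h against 3 h 2 of 8 (Il6 and Ptgs2), where 8.01% were. The later arrays lay above all earlier ones for the same genes in these contrasts, as in 10.3% of all genes at 6 h against 3 h and 15.2% at 12 h against 3 h. At 12 h against 6 h 0 of 8 was called by limma in either direction, where 5.69% of all genes were called, with the limit from the filter given above for Ccl20. There Il6 was higher on all arrays, as in 10.7% of all genes, and Ccl20 lower on all arrays, as in 12.7%. The median change of the 8 members was 0.01 at 6 h against 3 h, -0.04 at 12 h against 6 h and -0.04 at 12 h against 3 h, beside -0.01, -0.01 and -0.02 for all genes. At 12 h against 3 h the log2 change was -0.21 in Cxcl5, -0.19 in Ccl2 and -0.09 in Ccl7, and none of these passed the test. Ccl20 was at least 1.53-fold lower there, a value with no test. All 12 h arrays lay under all 3 h arrays in 3 of the 8 members, Cxcl5, Ccl2 and Ccl20, as in 18.6% of all genes. Over the 12 arrays Ptgs2 had a Pearson r of 0.64 with Il6, against -0.08 with Cxcl5, 0.07 with Ccl20 and 0.13 with Ccl2, and Il6 had one of 0.92 with Cxcl1. These values describe 12 arrays that share 4 groups.

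Within groups, single arrays were high or low for many members at once. Replicate 2 of the DMSO group was the highest DMSO array for 7 of 7 members, Ccl20 left out as under the threshold there, which held for 34.9% of all genes tested. Replicate 3 was the lowest for 5 of the 7, which held for 34.7%. Replicate 3 of the 3 h group was the highest 3 h array for 6 of 8, which held for 34.5% of all genes. Every change against DMSO contains these deviations, since all 3 times are set against the same 3 arrays. Their part in the results was measured by leaving out single arrays only.

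**Figure D4:**
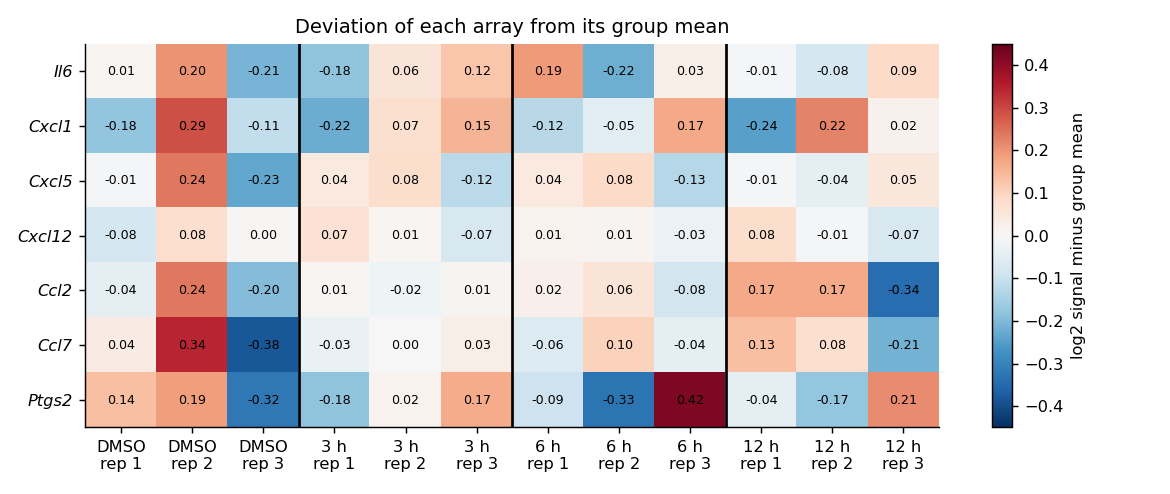
Difference of each array's log2 signal from its group mean (colour and printed number) for 7 members (down the side) on the 12 arrays (along the bottom, groups parted by lines). DMSO replicate 2 is above 0 for every member drawn (0.08 to 0.34) and 12 h replicate 3 is at -0.34 for Ccl2 and -0.21 for Ccl7; Ccl20 is left out because it was under the threshold with DMSO.

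Of the neighbours of the chemokine members in the genome, 3 were tested and 1 passed, at 12 h, where 13.7% of all genes were called higher. In RefSeq's gene order on chromosome 5, Cxcl5 and Cxcl1 lie in 1 cluster with Ppbp, Pf4, Cxcl3, Cxcl15 and Cxcl2. Cxcl2 (0.32 to 5.07) and Cxcl3 (0.00 to 5.24), genes of close relatives of the Cxcl1 product, were under the threshold on all 12 arrays. Pf4, a platelet chemokine gene, was the only other of the 5 that was tested, and it did not pass at any time (log2 changes 0.33, 0.39 and -0.23, adjusted p = 0.34 at the lowest). On chromosome 11 the cluster of Ccl2 and Ccl7 goes on with Ccl11, Ccl12, Ccl8 and Ccl1. Ccl11, the eotaxin gene, had log2 changes of -0.35, -0.46 and -0.51 (adjusted p = 0.634, 0.302 and 0.187), and Ccl8, a monocyte chemokine gene, rose at 12 h (0.50 ± 0.11 SE, adjusted p = 0.00296). Ccl12 and Ccl1 were not tested.

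The wider chemokine families are read against all genes. Over all 12136 genes 1.09%, 7.24% and 13.7% were called higher and 0.816%, 6.98% and 14.6% lower at 3, 6 and 12 h. Of 7 other tested genes of CXC, CX3C and XC chemokines 0 passed limma's test at any time, with a median log2 change of 0.33, 0.49 and 0.37 at 3, 6 and 12 h. Of 10 other tested CC chemokine genes 0 passed at 3 h and 6 h and 2 rose at 12 h, with medians of -0.11, -0.01 and 0.00. These 2 were Ccl8 and Ccl5, the gene of RANTES, which draws T cells and monocytes and was 1.69-fold higher at 12 h (9.81 ± 0.33 against 9.05 ± 0.25 with DMSO, SD, n = 3 each; log2 change 0.76 ± 0.17 SE, adjusted p = 0.00272 by limma). Of 20 chemokine receptor genes on the array 6 were tested, and 1 was called higher, at 6 h. It was Cxcr3, the receptor of interferon-induced chemokines, under the threshold with DMSO and at least 1.89-fold higher at 6 h. Cxcr3 passed the filter only through berberine arrays, so its call is no support for a difference.

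In the IL-6 pathway, 16 genes other than Il6 were tested, and 0 passed limma's test at 3 h and 6 h. At 12 h 2 rose and 2 fell, and the median log2 change was -0.01, 0.03 and -0.04 over the 3 times. Among all genes 1.09%, 7.24% and 13.7% were called higher and 0.816%, 6.98% and 14.6% lower at 3, 6 and 12 h. Jak1, the main kinase on gp130, rose 1.55-fold (12.08 ± 0.03 at 12 h against 11.45 ± 0.08 with DMSO, SD, n = 3 each; log2 change 0.63 ± 0.07 SE, adjusted p = 3.2e-06). Il6st, the gp130 gene, rose by less (0.27 ± 0.08, adjusted p = 0.0172), a call that ended without DMSO replicate 1 or 3 (0.0748 and 0.0867), without 12 h replicate 1 (0.0673) and with the mean of its probe sets (0.288). Ctf1, the gene of the related cytokine cardiotrophin 1, was 1.50-fold lower at 12 h (adjusted p = 0.00317) and Pias3, an inhibitor of STAT3, 1.34-fold lower (adjusted p = 0.01, or 0.154 with the mean of its probe sets).

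Around Ptgs2, 16 genes of prostaglandin synthesis, breakdown and reception were tested. Of these, 0 passed at 3 h, 1 rose and 3 fell at 6 h, and 2 rose and 3 fell at 12 h, where 7.24% and 13.7% of all genes were called higher and 6.98% and 14.6% lower at 6 and 12 h, with median log2 changes of 0.01, -0.04 and -0.04. Pla2g4a, the cytosolic phospholipase A2 that frees arachidonic acid and the neighbour of Ptgs2 on chromosome 1, was 10.91 ± 0.28 at 12 h against 9.73 ± 0.09 with DMSO (log2 signal, SD, n = 3 each). It rose 2.27-fold at 12 h (log2 change 1.18 ± 0.11 SE, adjusted p = 3.95e-07) and 1.35-fold at 6 h (adjusted p = 0.0133, or 0.0549 without 6 h replicate 3). At 3 h its log2 change was 0.10 ± 0.11 (adjusted p = 0.764), and the log2 changes of Ptgs2, given above, were -0.46, 0.89 and 1.25 at 3, 6 and 12 h. Ptges, a prostaglandin E synthase, was lower at 6 h (log2 change -0.41 ± 0.13, adjusted p = 0.0371) and 12 h (-0.38 ± 0.13, adjusted p = 0.0321). Both calls rested on single arrays, with an adjusted p of up to 0.176 at 6 h and 0.16 at 12 h without DMSO replicate 1, and the call at 6 h ended after quantile normalization (0.0517).

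Prostaglandin reception and export followed other courses. Ptgfr, the receptor of prostaglandin F2 alpha, was 1.42-fold lower at 6 h (adjusted p = 0.0235) and 1.72-fold lower at 12 h (log2 change -0.78 ± 0.14 SE, adjusted p = 0.00043). Its call at 6 h ended without DMSO replicate 2 or 3 (0.0829 and 0.0657) and without 6 h replicate 2 or 3 (0.0816 and 0.0544). Abcc4, a pump that exports prostaglandins among other anions, was lower at 6 h (-0.44 ± 0.12, adjusted p = 0.0183) and higher at 12 h (0.47 ± 0.12, adjusted p = 0.00549). The fall of Abcc4 at 6 h ended without DMSO replicate 1 or 3 (0.09 and 0.0734) or 6 h replicate 2 (0.101).

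**Figure D5:**
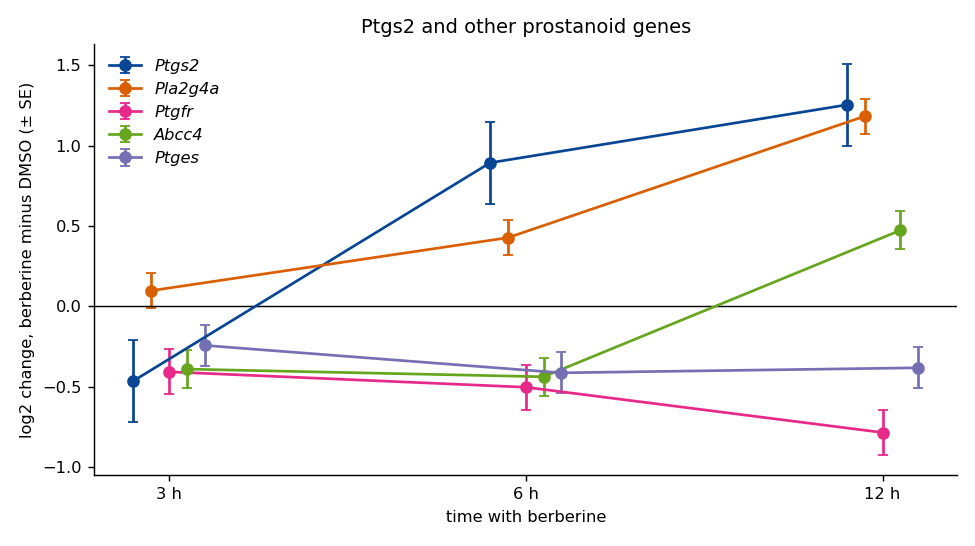
Log2 change against DMSO (vertical axis, ± limma's SE) of Ptgs2 and 4 other prostaglandin genes at 3, 6 and 12 h of berberine (horizontal axis). Ptgs2 and Pla2g4a reach 1.25 and 1.18 at 12 h, Ptgfr and Ptges are below 0 at every time, and Abcc4 goes to the other side of 0 between 6 h (-0.44) and 12 h (0.47).

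Genes of the NF-kB pathway and its targets are set beside the shares of all genes called higher (1.09%, 7.24% and 13.7%) and lower (0.816%, 6.98% and 14.6%) at 3, 6 and 12 h. Of 13 tested pathway genes, 1 rose at 3 h, 1 at 6 h and 2 at 12 h, and 1 fell, at 12 h, with median log2 changes of 0.12, 0.02 and -0.11. Nfkbie, an inhibitor of NF-kB that NF-kB itself induces, was 1.95-fold higher at 3 h (9.43 ± 0.15 against 8.47 ± 0.39 with DMSO, SD, n = 3 each; adjusted p = 0.00356, or 0.14 with the mean of its probe sets). At 12 h its log2 change was -0.07 ± 0.16 (adjusted p = 0.815). Relb, a subunit of the non-canonical pathway, rose 1.49-fold at 6 h (adjusted p = 0.0188, or 0.0843 without DMSO replicate 3 and 0.1 without 6 h replicate 1) and 1.61-fold at 12 h (adjusted p = 0.00281). Bcl3, a partner of NF-kB on DNA, rose 1.67-fold at 12 h (adjusted p = 0.00115). Nfkbia, the main inhibitor, was lower at 12 h (-0.24 ± 0.08, adjusted p = 0.0372), a call that ended without DMSO replicate 3 (0.175), 12 h replicate 1 (0.0876) or 12 h replicate 3 (0.112).

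Of 13 other tested genes that NF-kB induces in many cells, 1 rose at 3 h, 4 at 6 h and 5 at 12 h and 0 fell, with median log2 changes of 0.33, 0.35 and 0.32. At 12 h the stromelysin gene Mmp3 rose 1.47-fold (adjusted p = 0.00241), Lcn2, the iron-binding protein lipocalin 2, 1.38-fold (adjusted p = 0.00286), and the adhesion molecule gene Vcam1 1.33-fold (adjusted p = 0.00433). Lcn2 and Vcam1 also passed at 6 h (adjusted p = 0.02 and 0.0221), where each call ended without DMSO replicate 3 (0.0919 and 0.0937). The call of Lcn2 ended further without DMSO replicate 1 (0.105) or 6 h replicate 3 (0.0888), and that of Vcam1 without 6 h replicate 1 (0.116). Birc3, an inhibitor of cell death, was 1.45-fold higher at 3 h (adjusted p = 0.0131). That call ended without DMSO replicate 1 (0.0828) and without 3 h replicate 1 or 2 (0.0579 and 0.0577).

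Of 12 tested genes of proteins that bind cytokine mRNAs and set their decay, 2 rose and 1 fell at 3 h, 2 and 2 at 6 h, and 3 and 1 at 12 h, with median log2 changes of 0.02, -0.01 and -0.02. Among all genes 1.09%, 7.24% and 13.7% were called higher and 0.816%, 6.98% and 14.6% lower at these times. Zfp36, the gene of tristetraprolin, which speeds the decay of many cytokine mRNAs, was 1.45-fold, 1.47-fold and 1.53-fold higher at 3, 6 and 12 h (adjusted p = 0.014, 0.00248 and 0.000408). At 3 h the call of Zfp36 ended without DMSO replicate 1 (0.0653) or 3 h replicate 3 (0.0796). Its relative Zfp36l1 was 1.36-fold, 1.24-fold and 1.23-fold higher (adjusted p = 0.000396, 0.00189 and 0.00102). Rc3h1, the gene of roquin 1, another factor of decay, was 1.44-fold, 1.50-fold and 1.38-fold lower (adjusted p = 0.0071, 0.000731 and 0.00195). Khsrp, which binds AU-rich mRNA, was 1.49-fold lower at 6 h (adjusted p = 0.0143), a call that ended without 6 h replicate 1 (0.0599) and with the mean of its probe sets (0.0596).

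Of 14 stress and CCAAT-binding transcription factors, 4 rose at each of the 3 times, and 0, 3 and 3 fell at 3, 6 and 12 h, with median log2 changes of -0.04, 0.00 and 0.02. Among all genes 1.09%, 7.24% and 13.7% were called higher and 0.816%, 6.98% and 14.6% lower at these times. Ddit3, the gene of CHOP, had log2 changes of 0.83, 1.89 and 2.42 and Atf4 of 0.72, 1.38 and 1.43 (each ± 0.06 or 0.07 SE). Atf3 had 1.19, 2.41 and 3.23 (each ± 0.21 SE), from a DMSO signal of 6.31 ± 0.47 (SD, n = 3). Fosl1, a subunit of AP-1, was 2.17-fold lower at 12 h (adjusted p = 0.0286), a call that ended without DMSO replicate 1 (0.153) or 12 h replicate 1 (0.115).

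The part of cell type markers in the members' changes was not tested. Their counts stand beside the shares of all genes called higher (1.09%, 7.24% and 13.7%) and lower (0.816%, 6.98% and 14.6%) at 3, 6 and 12 h. The summed linear signal of the 15 macrophage and leukocyte markers on the array was 1186 to 1283 with DMSO, 1299.5 to 1356.5 at 3 h, 1405 to 1474 at 6 h and 1323 to 1626 at 12 h. The brightest marker, Cd14, weighs most in this sum (median log2 signal 9.37, against 7.35 for the next, Mpeg1). The median log2 change of the 6 tested markers was 0.22, 0.05 and 0.14 at 3, 6 and 12 h. Of these 6 markers 1 rose, at 6 and 12 h: Cd14, the co-receptor of Toll-like receptors (log2 changes 0.34 and 0.38, adjusted p = 0.0292 and 0.00761). The call of Cd14 at 6 h ended without any 1 of 5 arrays, DMSO replicate 1 or 3 or 6 h replicates 1, 2 or 3 (0.0511 to 0.122). Of 13 adipocyte markers 1 fell at 3 h, 4 rose and 3 fell at 6 h, and 1 rose and 8 fell at 12 h, while after quantile normalization 0 rose at 6 and 12 h. The adipocyte markers named here were picked for the largest changes, and those that rose had smaller ones. Lep, the leptin gene, had the largest, at least 2.0-fold lower at 12 h (adjusted p = 0.0227 by limma). Its 12 h arrays scattered widely (4.92 ± 2.00, SD, n = 3), and the call ended without DMSO replicate 1 (0.0662). Cidec, a lipid droplet protein, was 1.55-fold lower at 6 h and 2.70-fold lower at 12 h, Lipe, hormone-sensitive lipase, 1.84-fold lower at 12 h, and Cebpa, a factor of fat cell identity, 1.50-fold lower at 12 h. The summed linear signal of the 13 adipocyte markers was 196120 to 244340 with DMSO, 220470 to 245330 at 3 h, 232400 to 254780 at 6 h and 203390 to 222340 at 12 h. Of 12 fibroblast markers 3 rose and 2 fell at 6 h and 3 rose and 3 fell at 12 h, and again 0 rose after quantile normalization. Of 8 endothelial markers 1 was tested, and it did not pass at any time. In such bulk samples fewer cells of a type and less RNA per cell cannot be told apart.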

How the data were processed

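The authors deposited log2 signals for 45101 probe sets, 64 of them controls, with a column for each array. Per the submitters' processing notes these came from MAS5, and its version is not given in the sources used. The linear signals of every array had a 2% trimmed mean of 500.004, so each array had been scaled by a single factor, which leaves in a bias that differs with brightness. Dim values scatter widely on this scale. The labels gave the groups and the replicate numbers.

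A log2 signal of 5.77 (54.6 linear), the median over the non-control probe sets, served as detection threshold, and the 25053 probe sets that reached it on 3 or more of the 12 arrays were used. Symbols are those of the platform annotation, checked by Entrez identifier against the RefSeq gene table (also used for gene order): 34945 probe sets had 1 symbol, 932 several and 9160 none, and 34741 matched with 0 symbols changed. The brightest of its kept probe sets stood for each gene, with a probe set ending in _x_at used only for genes with no other, and this gave 12136 of 18193 genes. Of the members' 13 probe sets, 11 were kept.

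The fit was limma 3.58.1 in R 4.3.3: group means over all 12 arrays, moderated with an intensity trend, two-sided p-values, and Benjamini-Hochberg adjustment over every gene tested. An adjusted p under 0.05 made a call. SE stands for the standard error of the fit. A fold against a group whose mean was below the threshold is a bound, with dim values set to the threshold. The fits were tested on simulated data. Other probe sets of a member were fitted over all kept probe sets. Alternatives were quantile normalization, no filter and a stricter one (6 arrays), dim values raised, no intensity trend, the mean of a gene's probe sets, the replicate number as a block, only the 2 groups compared, and each array left out. Motifs and figures used Python 3.11.15 and matplotlib 3.10.9.

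The members, gene lists and tests were chosen with earlier results of these data known. Named genes are the 8 members, up to 4 called genes per list with the largest change against DMSO (some left out for space), the genome neighbours of the chemokine members, and the 3 genes most correlated with each member. Members and genes with predicted, RIKEN or microRNA symbols could not be among these 3.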

Additional observations from a re-analysis of the deposited data

Results flagged for a closer look

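For 2 of the members the change from DMSO differed between berberine times by a test of the difference itself. For Ptgs2 it was larger at 6 h than at 3 h, by 1.36 on the log2 scale (limma, adjusted p = 0.011), and at 12 h than at 3 h, by 1.72 (adjusted p = 0.000145), with all 3 later arrays above all 3 h arrays in both cases. For Il6 it was larger at 12 h than at 3 h, by 0.65 (adjusted p = 0.0396), again in 3 of 3 arrays. Without 6 h replicate 3 the difference of Ptgs2 between 6 h and 3 h had an adjusted p of 0.0659, and that of Il6 had one of 0.0595 to 0.138 when any 1 of its 6 arrays was left out. The berberine arrays also entered the choice of these members, and no cause was tested.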

How the results depend on the processing

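Same-numbered arrays of different groups did not deviate together (r of -0.04 to 0.03 over 18 pairs). This gives no sign of a pairing by number, but cannot show whether such arrays shared a culture or a day. With the replicate block 1 member in place of 2 was called at 12 h against 3 h (Il6 had an adjusted p of 0.0591), and the other counts stayed at 6, 8, 7, 1 and 0. Of 8 members, 3 were called at 3 h without the intensity trend, 5 at 6 h with no filter and 5 with only the 2 groups compared, 1 at 12 h against 6 h with dim values raised (Ccl20), 1 at 12 h against 3 h with no filter (Il6 at 0.0868) and 3 there with only the 2 groups compared (Cxcl5 at 0.0387). With dim values raised 5, 8 and 5 were called at 3, 6 and 12 h against DMSO. Ccl20 passed the filter only through the arrays where it is high, so its calls support nothing. With single arrays left out the counts lay between 4 and 6 at 3 h, 5 and 8 at 6 h and 5 and 8 at 12 h against DMSO, 0 and 1 at 6 h against 3 h (0 without 6 h replicate 3), 0 and 1 at 12 h against 6 h, and 1 and 2 at 12 h against 3 h (Ccl20, with an adjusted p of 0.0263, was the other call without 12 h replicate 1). The call of Il6 there ended without any 1 of the 6 arrays, and that of Ptgs2 at 6 h against DMSO ended without DMSO replicates 1 (0.0506) or 3 (0.0983), 6 h replicate 3 (0.134) or the filter (0.0549). The causes were not tested. Differences that turned sign were all uncalled and small. For Cxcl1 at 6 h against 3 h the value was 0.0242 with the mean of probe sets and -0.1222 to 0.0654 with single arrays left out, and for Ccl20 it was -0.0143 to 0.3874. After quantile normalization Cxcl12 was at -0.0401, 0.0233 and -0.0168 at 6 h against 3 h, 12 h against 6 h and 12 h against 3 h. At 12 h against 6 h Cxcl12 was 0.0506 with the mean of probe sets and -0.0696 to 0.0066 with single arrays left out, Ccl2 was -0.2266 to 0.0295 and Ccl7 -0.1138 to 0.0591. At 12 h against 3 h Cxcl12 was -0.0323 to 0.0439 and Ccl7 -0.1572 to 0.0157. Over all genes, 231 calls at 3 h became 93 without the trend and 114 with the mean of probe sets, 1726 at 6 h became 1099 with the mean of probe sets, 284 at 6 h against 3 h became 60 and 146 under the same settings, and 690 at 12 h against 6 h became 296 without the trend. The alternatives for the lists and for the other probe sets were chosen after seeing the data, and under quantile normalization 18 of 18 changes of the other probe sets of Cxcl1 and Cxcl12 kept their direction and call. Signals near the threshold (Il6 and Ptgs2 with DMSO, Ccl20) limit the folds.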

Other observations

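The genes most like each member over the 12 arrays, by Pearson r of the log2 signals, are given as a description, since the arrays share 4 groups and many genes differ between them. Other members, and genes with predicted, RIKEN or microRNA symbols, were left out of this ranking. Ccl2 and Ccl7 had a higher r with each other (0.960) than with any gene ranked here. Il6 was most like the zinc finger gene Zbtb11 (0.968), the growth factor gene Vegfd (0.967) and the DNA damage gene Gadd45a (0.962). Cxcl1 was most like Morc3 (0.944), Ppfia1 (0.942) and Fer (0.927), and Cxcl5 most like Klf6 (0.920), Cmtm5 (0.887) and the AP-1 gene Jun (0.863). Cxcl12 was most like the elongation factor gene Eef2 (0.934), the vimentin gene Vim (0.913) and Yeats4 (0.911). Ccl2 was most like Wtap (0.959), the innate receptor gene Tlr2 (0.922) and Larp7 (0.919), and Ccl7 most like Epc2 (0.946), the activin subunit gene Inhba (0.921) and Tlr2 (0.920). Ccl20 was most like Rasa3 (0.927), Ip6k2 (0.925) and Zfp358 (0.917), with dim values in both directions. Ptgs2 was most like Paqr3 (0.984), Trim35 (0.952) and Rbpms (0.947). Within this restricted ranking Tlr2 is the only gene that stands among the 3 of more than 1 member, here Ccl2 and Ccl7.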
